A study of Mus musculus with 16 samples.

Results

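Livers of mice with a deletion in Terc, which encodes the RNA of telomerase, were compared with wild-type livers of the same line. The deleted group, del7 in the text, carries a mouse Terc without the 7 nucleotides at positions 29 to 35 (genotype label mTERC 29_35del), and the control group, del7_WT, has the genotype label WT. The 8 libraries, 4 in each group, were picked by their titles from the 16 of the series and were fitted by themselves. Every mouse was untreated, with free access to food in ventilated cages. The labels give no strain, age or sex, do not say whether the deletion sits on one allele or both, and do not tie each replicate to its own animal, so the p-values cover only the variation among these samples, part of which may be technical. The other 8 libraries, AUG (genotype label mTERC CUG/AUG) and their own wild types, AUG_WT, enter a single comparison at the end.

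The telomerase RNA is the template from which telomerase adds telomere repeats, and a reading frame inside it has been described to give a small protein, TERP, tied to autophagy. Liver is mostly hepatocytes, which make plasma proteins such as albumin and answer pituitary growth hormone through the kinase JAK2 and the transcription factor STAT5. Kupffer cells are the resident macrophages of the liver: they sit in the sinusoids and take up particles, dead cells and old red cells. They depend on the receptor CSF1R and on the lineage factors PU.1 (Spi1) and Id3, and their gene list here also holds Spic. Neutrophils, monocytes and lymphocytes enter from the blood, and bulk RNA holds all of these cells at once.

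Each library held 7714058 (del7 replicate 4) to 14629022 (del7_WT replicate 1) reads counted in genes. Levels are CPM (counts scaled to a library size of 1e6 after TMM scaling), and differences are log2 fold changes, del7 over del7_WT, with their standard error (SE). Albumin took 7.46% to 9.59% of the counts, and all 17 hepatocyte identity genes were measured well enough to test. Of 13 markers of muscle, pancreas and fat, only Cela1 passed the filter, at 5.15 ± 0.925 against 5.12 ± 0.678 CPM (mean ± SD, n = 4 in each group), and the 6 counts of Adipoq, the 6 of Plin1 and the 3 of Retn, all fat genes, were all in del7_WT replicate 4. Xist had at least 14427 counts in every library, and none of the Y-linked genes Ddx3y, Uty, Kdm5d and Eif2s3y had more than 1. The first principal component, with 27.9% of the variance, split both groups by replicate number. Replicates 1 and 3 lay at -26.8 and -26.7 in del7 and at -7.01 and -15.1 in del7_WT. Replicates 2 and 4 lay at 21.3 and 10.8 in del7 and at 21.8 and 21.8 in del7_WT. On the second principal component, with 19.2% of the variance, del7 replicates 1 and 2 lay at -26.6 and -27.3 and the other 6 libraries between -1.05 and 21.2, so results that lean on that pair are also given with del7 replicates 3 and 4 only, a check added after the data were seen.

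No single gene passed the test: of 13841 genes, 0 (0%) reached an adjusted p of 0.05 in edgeR's quasi-likelihood test, and the smallest adjusted p was 0.0987, for Nfam1. Small unadjusted p-values leaned to one side. An unadjusted p under 0.01 was found for 207 genes higher in del7 (1.5% of those tested) and 82 lower (0.592%), and one under 0.05 for 587 higher (4.24%) and 324 lower (2.34%), although the signs over all genes were even, 50.7% higher and 49.3% lower, with a median log2 fold change of 0.003. Without del7 replicate 1 these counts were 122 and 46, and without del7_WT replicate 2 there were 111 higher. With the replicate number as a block, 244 were higher and 150 lower at 0.01, and 508 lower at 0.05. DESeq2 called 65 genes, 45 higher (0.345% of its 13029) and 20 lower (0.154%), while limma voom called 0. Of the 65, 9 were called again with each library left out in turn, among them Adgre4, Cxcl13, Dpt, Fgr, Lair1, Nfam1, Prok1 and Serpina3k. With del7 replicates 3 and 4 only, 50 genes were higher and 67 lower at 0.01, so the lean to higher genes was not there without the other pair. The values that follow are therefore levels and differences that did not pass the adjusted edgeR test, and in bulk RNA fewer cells of a type and less RNA per cell cannot be told apart. List counts below are to be read beside these shares of all tested genes. For groups without overlap the shares were 2.38% higher and 1.5% lower.

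Of the 15 genes with the smallest p among those higher in del7, 5 were on 1 of the 47 gene lists of cell types and pathways: Icam1, Csf3r, Vsig4, Cybb and Csf1r. Nfam1 (ENSMUSG00000058099.17), an immune receptor that signals through an ITAM motif, stood at 15.7, 14.1, 15.7 and 12.0 CPM in del7 replicates 1 to 4 and at 7.10, 6.06, 7.20 and 6.85 CPM in del7_WT. The lowest del7 library was above every wild-type library, and the mean was 2.12-fold that of del7_WT (log2 1.08, SE 0.13, DESeq2 adjusted p = 5.26e-07). Lair1, an inhibitory collagen receptor of leukocytes, read 9.19, 8.72, 7.42 and 7.78 CPM against 4.07, 3.77, 4.89 and 4.36 (log2 0.97, SE 0.15). These groups did not overlap either. Adgre4, an adhesion receptor related to F4/80, was at 19.6, 15.9, 17.0 and 10.9 CPM against 7.58, 5.60, 7.46 and 8.98 (log2 1.10, SE 0.20), with del7 replicate 4 nearest to the controls. The kinase gene Fgr, of the Src family and typical of myeloid cells, had the same order: del7 read 11.4, 8.08, 8.95 and 4.44 CPM, del7_WT 2.55, 3.31, 1.80 and 3.65 (log2 1.53, SE 0.29). In both genes replicate 4 was the lowest of the 4 del7 libraries.

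Rel, which encodes the NF-kB subunit c-Rel, had a tight spread, at 23.7, 20.9, 23.3 and 21.7 CPM against 16.8, 14.4, 14 and 14.6 (log2 0.58, SE 0.10). Itgal, the alpha chain of the integrin LFA-1, lay at 29.2 ± 3.04 CPM against 18.4 ± 2.53 (log2 0.67, SE 0.12), and Icam1, the ligand of that integrin, at 23.5 ± 1.36 against 15.9 ± 1.68 (log2 0.56, SE 0.11; mean ± SD, n = 4 in each group). Cybb, the catalytic subunit of the phagocyte NADPH oxidase, was at 44.5, 45.3, 38.4 and 28.5 CPM against 25.2, 16.7, 23.5 and 21.7, and Rac2, the small GTPase that activates that oxidase, at 10.4 ± 1.52 against 5.64 ± 0.708 (log2 0.85, SE 0.17, and log2 0.88, SE 0.15). Csf1r, the receptor on which macrophages depend, was at 102, 110, 109 and 83.4 CPM against 66.9, 46.2, 58.0 and 72.6 (log2 0.73, SE 0.14). Csf3r, the receptor for the neutrophil growth factor G-CSF, read 6.15, 5.65, 4.85 and 5.18 CPM against 2.83, 2.66, 1.67 and 3.20 (log2 1.05, SE 0.20). Over 43.6% of its transcript it is 96.8% identical to AC105061.2, so its reads may have been split or dropped.

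The same set held Lpcat2, an enzyme of platelet-activating factor synthesis (log2 1.03, SE 0.20), the guanine exchange factor Dock10 (0.58, SE 0.11), the myosin Myo9a (0.51, SE 0.09) and Vsig4, taken up with the Kupffer cell genes. All 15 lay at edgeR adjusted p-values of 0.0987 to 0.287 and DESeq2 adjusted p-values of 5.26e-07 to 0.0162. The groups did not overlap in any of the 15, against 2.38% of all tested genes higher in del7 without overlap, but the 15 were taken for their small p, so this separation describes the choice and supports nothing. The plot of leading genes shows how narrow the wild-type spread was for Rel, Myo9a and Dock10, and how often del7 replicate 4 sat lowest.

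**Figure D1:**
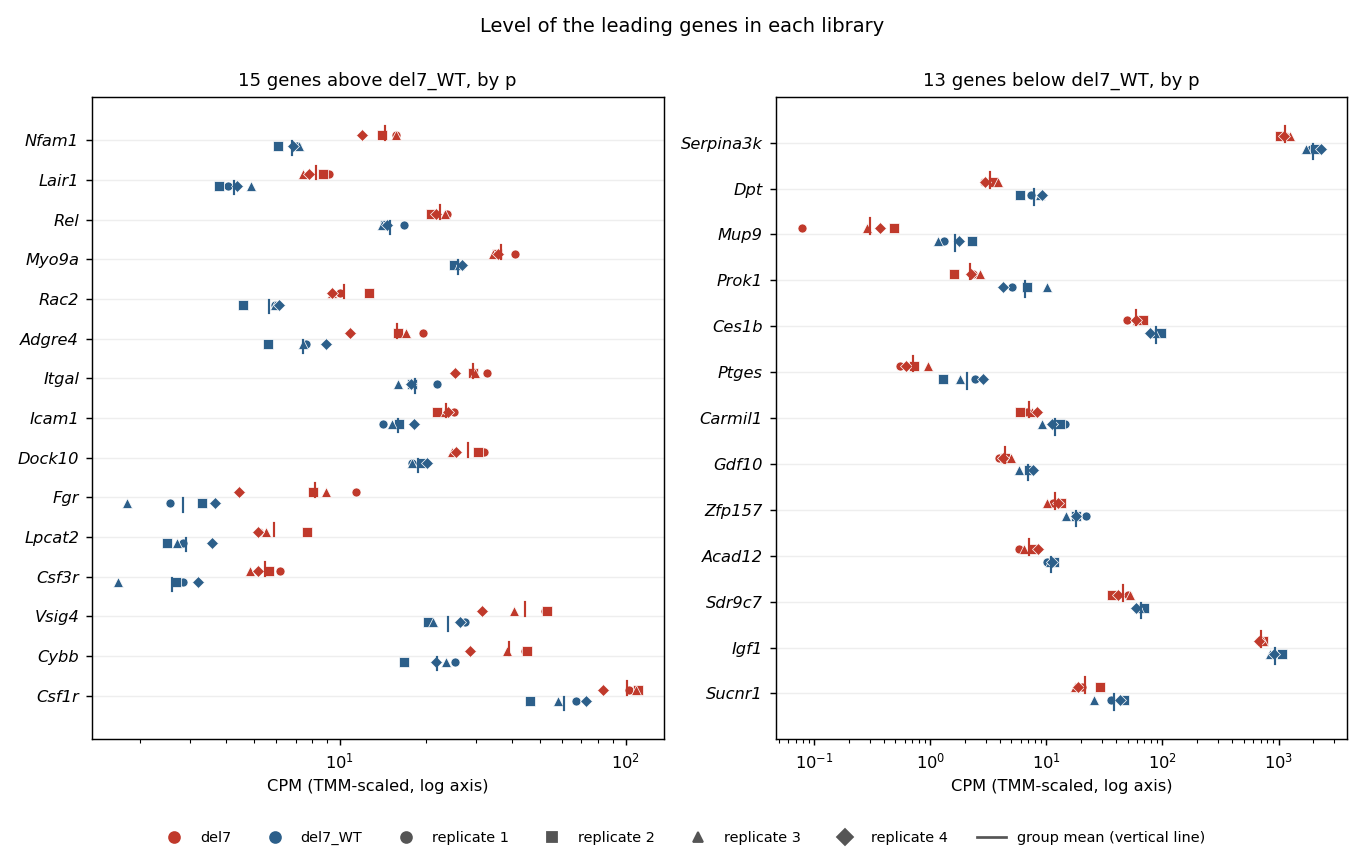
TMM-scaled CPM on a log axis for 15 genes above and 13 genes below del7_WT among those with the smallest p, 1 symbol per library (del7 red, del7_WT blue, shape by replicate) and a vertical line at each group mean. The red and blue symbols do not overlap in 15 of 15 genes on the left and 12 of 13 on the right, a separation that follows from picking the genes by p.

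Kupffer cell identity genes lay above their wild types as a group, with wide differences between libraries. Of the 12, all tested, 10 were higher in del7, 8 of them at an unadjusted p under 0.05, beside 4.24% of all tested genes. Beside 0.345% of its genes called higher, DESeq2 called 4 of the 12, and 0 of them passed edgeR's adjusted test. Their median log2 fold change was 0.84, beside 0.003 over all tested genes, and their summed level was 758, 735, 821 and 615 CPM in del7 replicates 1 to 4 against 540, 465, 623 and 629 in del7_WT, with replicate 4 inside the control range. Vsig4 (ENSMUSG00000044206.4), the complement receptor by which Kupffer cells hold opsonised particles, read 52.3, 53.2, 40.6 and 31.5 CPM against 27.3, 20.4, 21.2 and 26.4 (log2 0.90, SE 0.17). Every del7 library was above every control, replicate 4 by the smallest margin. Cd5l, a secreted scavenger protein of tissue macrophages, followed the same order at 156, 158, 138 and 86.8 CPM against 84.8, 53.3, 74.7 and 79.4 (log2 0.88, SE 0.20). Spic, the factor of macrophages that recycle red-cell iron, was at 3.04, 3.39, 3.33 and 1.73 CPM against 1.31, 1.19, 0.900 and 1.16 (log2 1.32, SE 0.27), again without overlap. Over 19.7% of its transcript Spic is 95.7% identical to Gm37266, so some of its reads may have been dropped. Timd4, a phosphatidylserine receptor of long-lived resident Kupffer cells, was highest in del7 replicate 3, at 8.10, 12.0, 19.1 and 7.90 CPM against 4.83, 3.31, 5.27 and 6.94 (log2 1.22, SE 0.31).

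The other Kupffer genes overlapped between the groups. Marco, a scavenger receptor, ran from 8.27 to 78.5 CPM within del7 and from 2.66 to 13.2 in del7_WT (log2 2.04, SE 0.69), with del7 replicates 2 and 3 highest, at 34.8 and 78.5 CPM, and replicate 4 inside the control range. Adgre1, which encodes F4/80, was at 39.6, 40.4, 52.2 and 30.9 CPM against 25.8, 13.4, 21.6 and 32.3 (log2 0.81, SE 0.24), with only del7 replicate 4 inside the control range. Folr2 had a log2 fold change of 1.06 (SE 0.28), Clec4f, a lectin found on Kupffer cells alone among liver cells, 0.44 (SE 0.18), the ficolin Fcna 0.32 (SE 0.16) and the haemoglobin receptor Cd163 0.45 (SE 0.59). The direction differed in 2 of the 12 genes: the iron exporter Slc40a1 was at 243 ± 31.4 CPM against 245 ± 31.2 (log2 -0.01, SE 0.12), and Id3 at 46.8 ± 18.2 against 56.2 ± 12.9 (log2 -0.27, SE 0.29). The list's median stayed between 0.69 and 0.97 when any one library was left out, and 7 to 9 genes had a p under 0.05 in each such fit. With del7 replicates 3 and 4 only, 12 of 12 were higher, 6 at that p, with a median of 0.61.

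**Figure D2:**
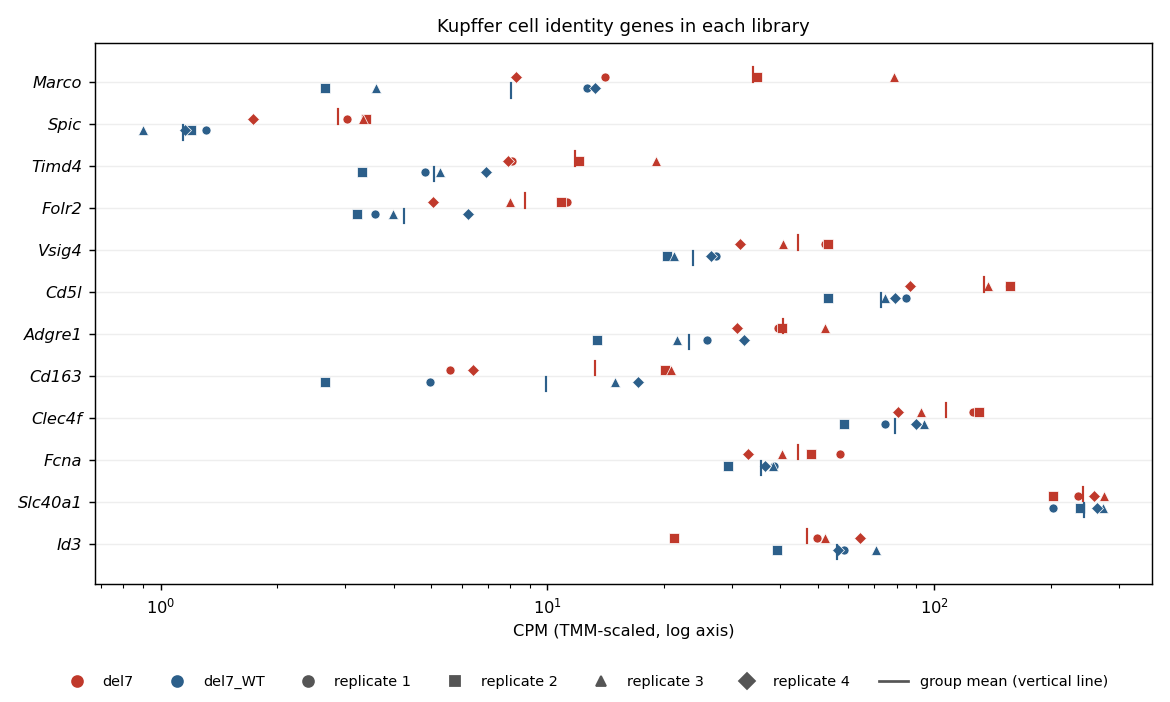
TMM-scaled CPM on a log axis of the 12 Kupffer cell identity genes, ordered by log2 fold change, 1 symbol per library (del7 red, del7_WT blue, shape by replicate) and a vertical line at each group mean. Spic, Timd4, Vsig4 and Cd5l do not overlap between the groups, Marco runs from 8.27 to 78.5 CPM within del7, and Slc40a1 and Id3 lie together.

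PU.1 and Spic belong to the ETS family, whose members bind a GGAA core, so the promoters of the leading genes were searched for GGAAGT, and for the longer PU.1 form GAGGAAGT, which contains it, on both strands of the 250 bases before each RefSeq start (build GRCm38.p6). For 12 of the 15 leading higher genes a window was at hand, 15 windows in all, and 4 held GGAAGT (26.7%). Among Kupffer genes 6 of 11 windows held it (54.5%, 10 genes matched), among general myeloid genes 8 of 17 (47.1%, 14 genes matched), and among all 32851 mouse windows 19.7%. GAGGAAGT was in 1 window of the leading higher genes (6.67%), in 0 of the Kupffer and in 1 of the myeloid windows, and in 2.44% of all. Among the leading lower genes, 1 of 13 windows held GGAAGT (7.69%, 11 genes matched) and 1 of 13 held GAGGAAGT (7.69%). The windows of 4 genes from the text are shown. They were picked, with small p, from leading higher and Kupffer genes whose only window holds the letters, here once each. They are thus chosen for the match. The gene's own strand is printed, in lower case, with the match in capitals; where it is on the opposite strand it reads ACTTCC. Rel is chr11:23770970-23771219 (minus strand), Fgr chr4:132973845-132974094 (plus), Vsig4 chrX:96293439-96293688 (minus) and Spic chr10:88683024-88683273 (minus), each ending at the base before the start.
Rel: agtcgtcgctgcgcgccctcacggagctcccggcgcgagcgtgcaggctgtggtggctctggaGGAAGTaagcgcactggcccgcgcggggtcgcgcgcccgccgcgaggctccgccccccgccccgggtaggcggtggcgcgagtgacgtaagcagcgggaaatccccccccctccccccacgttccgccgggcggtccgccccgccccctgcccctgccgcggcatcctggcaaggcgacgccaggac
Fgr: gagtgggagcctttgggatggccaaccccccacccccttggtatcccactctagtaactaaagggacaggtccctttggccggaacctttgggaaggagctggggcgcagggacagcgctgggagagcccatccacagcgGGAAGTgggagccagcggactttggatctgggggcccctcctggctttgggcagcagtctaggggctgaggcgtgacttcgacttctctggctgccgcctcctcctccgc
Vsig4: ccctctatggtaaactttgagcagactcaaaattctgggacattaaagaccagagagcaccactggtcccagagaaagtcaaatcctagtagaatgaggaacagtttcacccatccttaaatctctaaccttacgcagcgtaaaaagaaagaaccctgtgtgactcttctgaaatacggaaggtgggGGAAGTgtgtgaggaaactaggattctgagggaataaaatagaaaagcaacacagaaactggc
Spic: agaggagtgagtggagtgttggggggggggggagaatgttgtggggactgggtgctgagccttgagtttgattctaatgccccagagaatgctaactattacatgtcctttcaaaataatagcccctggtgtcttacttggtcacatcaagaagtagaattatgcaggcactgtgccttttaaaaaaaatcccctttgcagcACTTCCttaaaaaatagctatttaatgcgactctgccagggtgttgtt
In Rel the 2 bases before the capitals complete GAGGAAGT. The match ends 182 bases before the start in Rel, 105 in Fgr, 58 in Vsig4 and 43 in Spic. A match is a run of letters in this window and says nothing of binding, and windows of near genes or alternative starts were not compared.

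General myeloid and phagocyte genes were higher in del7 throughout. The list mixes macrophage genes, such as Ms4a7 and those of C1q, with genes that other leukocytes share. All 21 tested of 22 were higher in del7, 20 at an unadjusted p under 0.05, beside 4.24% of all tested genes. Of the 21, 7 were without overlap, beside 2.38%, 6 were DESeq2 calls, beside 0.345%, and 0 passed edgeR's adjusted test. The median log2 fold change of the list was 0.73. All 22 summed to 804, 831, 682 and 529 CPM in del7 replicates 1 to 4 and 464, 362, 418 and 510 CPM in del7_WT. Each del7 library was thus above each control, replicate 4 by little. Ms4a7, a macrophage membrane protein, read 2.34, 1.86, 3.62 and 1.85 CPM against 0.552, 0.735, 0.386 and 1.24 (log2 1.69, SE 0.37), and the lysosomal protein gene Laptm5 36.7, 38.7, 26.6 and 21.4 against 16.5, 14.4, 17.6 and 20.3 (log2 0.85, SE 0.19). Neither overlapped. Itgam, the integrin CD11b of recruited myeloid cells, was the member below the filter, with 35 counts in del7 and 41 in del7_WT. When one library was left out, 21 of 21 were again higher and the median ran from 0.58 to 0.85; with del7 replicates 3 and 4 only it was 0.44, with 21 of 21 higher and 8 at a p under 0.05.

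Receptors and effectors of innate immunity had smaller shares. Of 18 innate sensor genes 14 were higher and 7 had an unadjusted p under 0.05, among them the nucleic-acid sensors Tlr9 (2.26, 2.42, 1.90 and 2.34 CPM against 1.10, 1.29, 0.771 and 1.07; log2 1.05, SE 0.23), Tlr13 (log2 0.89, SE 0.21) and Tlr8 (0.73, SE 0.21), and the adaptor Myd88 (0.32, SE 0.11). The median of the list was 0.36, but 0.21 without del7 replicate 1 and 0.13 with del7 replicates 3 and 4 only. Of 14 tested cytokine and NF-kB genes, from a list of 22, 13 were higher and 5 had that p, with a median of 0.38: besides Icam1 these included Relb, another NF-kB subunit (log2 0.85, SE 0.23), the adhesion molecule Vcam1 (0.61, SE 0.22) and the inflammasome sensor Nlrp3 (0.70, SE 0.28). All 22, tested or not, summed to 205 to 219 CPM in del7 and 161 to 189 CPM in del7_WT, without overlap. Tnf and Il6, the classic inflammatory cytokines, were among the members too low to test.

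Clearance receptors and the macrophage genes of the complement system lay among the higher genes. Among 14 scavenger and dead-cell clearance genes 12 were higher, 5 at an unadjusted p under 0.05 and 4 without overlap, with a median of 0.13. Sirpa, the receptor for the CD47 signal on phagocytes, was at 49.0, 46.9, 45.7 and 35.7 CPM against 27.0, 21.2, 25.7 and 34.1 (log2 0.72, SE 0.15, DESeq2 adjusted p = 0.0127). Cd300a (log2 0.96, SE 0.21), Cd300lf (1.42, SE 0.38) and the kinase receptor Axl (0.42, SE 0.12) bind lipids or bridging proteins of dying cells. The 3 genes of C1q, the complement starter made by macrophages, were higher on average: C1qa had a log2 fold change of 0.69 (SE 0.19), C1qb 0.64 (SE 0.16) and C1qc 0.65 (SE 0.16). Over all 20 complement genes, most of them hepatocyte products, 13 were higher, 5 at that p, with a median of 0.15, which was 0.06 without del7_WT replicate 4 and 0.025 with del7 replicates 3 and 4 only. The C1q genes, and Msr1 of the clearance genes, are also on the general myeloid list, so they are counted there too. Stab1, Stab2 and Mrc1 are on both the clearance and the sinusoidal endothelial lists.

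Neutrophil genes were highest in del7 replicates 1 and 2. Of 14 neutrophil genes 3 passed the filter, all higher (median 1.05), and S100a9, an abundant calcium-binding protein of neutrophils, read 2.80, 4.44, 1.14 and 0.741 CPM against 0.483, 1.01, 0.386 and 0.978 (log2 1.70, SE 0.55). All 14, tested or not, summed to 15.7, 20.4, 8.76 and 7.78 CPM in del7 and 5.45, 6.25, 4.11 and 7.20 in del7_WT, without overlap. Replicates 1 and 2 of del7 were the highest. The mean centred log2 CPM of the 3 tested genes did overlap. There del7 replicate 4, at -0.25, was below del7_WT replicates 2 and 4, at -0.17 and -0.18. Below the filter, and part of the sum of 14, S100a8 had 72 counts in del7 and 24 in del7_WT. Ltf, a granule protein, had 31 and 1, with 16, 12, 2 and 1 over del7 replicates 1 to 4. Ngp had 24 and 3, and Ly6g, which defines mouse neutrophils, 0 in all 8 libraries. With del7 replicates 3 and 4 only the median of the neutrophil genes was 0.40.

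Erythroid genes overlapped between the groups. All 8 tested of 13 were higher on average, with a median of 0.91, but 1 had an unadjusted p under 0.05 and 0 were without overlap. Slc4a1, the anion exchanger of the red-cell membrane, was at 8.65, 9.13, 1.33 and 0.494 CPM against 1.03, 0.0918, 0.129 and 1.16 (log2 2.93, SE 0.88), and the globin gene Hbb-bt at 67.2, 99.0, 13.7 and 14.7 CPM against 25.0, 15.4, 8.49 and 34.7 (log2 1.21, SE 0.62). For Hbb-bt only del7 replicates 1 and 2 exceeded all controls, and for Slc4a1 they were far above the other 6 libraries. Without del7 replicate 2 the list's median was 0.34, and without that pair it turned to -0.45, with 2 of 8 genes higher. The summed erythroid level was 662, 1015, 218 and 159 CPM in del7 and 413, 183, 139 and 347 in del7_WT; its part in the myeloid differences was not tested.

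Other immune and stromal cell types gave less. B and plasma cell genes had a median of 0.36 with 8 of 12 tested higher, 0 at an unadjusted p under 0.05, and del7 replicate 2 alone reached 251 CPM in sum; without it the median was -0.15. T and natural killer cell genes were mostly too low, 5 of 17 tested, and MHC class II genes were higher in 7 of 7 (median 0.28) with 1 at that p; the median was 0.14 without del7 replicate 2 and 0.44 without del7 replicate 1. Among 10 tested monocyte genes 7 were higher (median 0.22), led by Nr4a1, a factor of patrolling monocytes (log2 1.72, SE 0.49), and Itgax, the integrin CD11c, which read 15 CPM in del7 replicate 1 and 3.58 to 5.41 in the other del7 libraries against 2.19 to 3.20 in del7_WT (log2 1.44, SE 0.45). With del7 replicates 3 and 4 only, 4 of the 10 monocyte genes were higher, with a median of -0.003. Sinusoidal endothelial genes had a median of 0.08, with Cdh5, the endothelial cadherin, at 0.40 (SE 0.12), and stellate cell genes -0.04, with 0 of 12 at that p. Bile duct genes had a median of 0.02 and 2 of 8 at that p, Sox9 (0.70, SE 0.21) and Cd24a (0.94, SE 0.37).

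**Figure D3:**
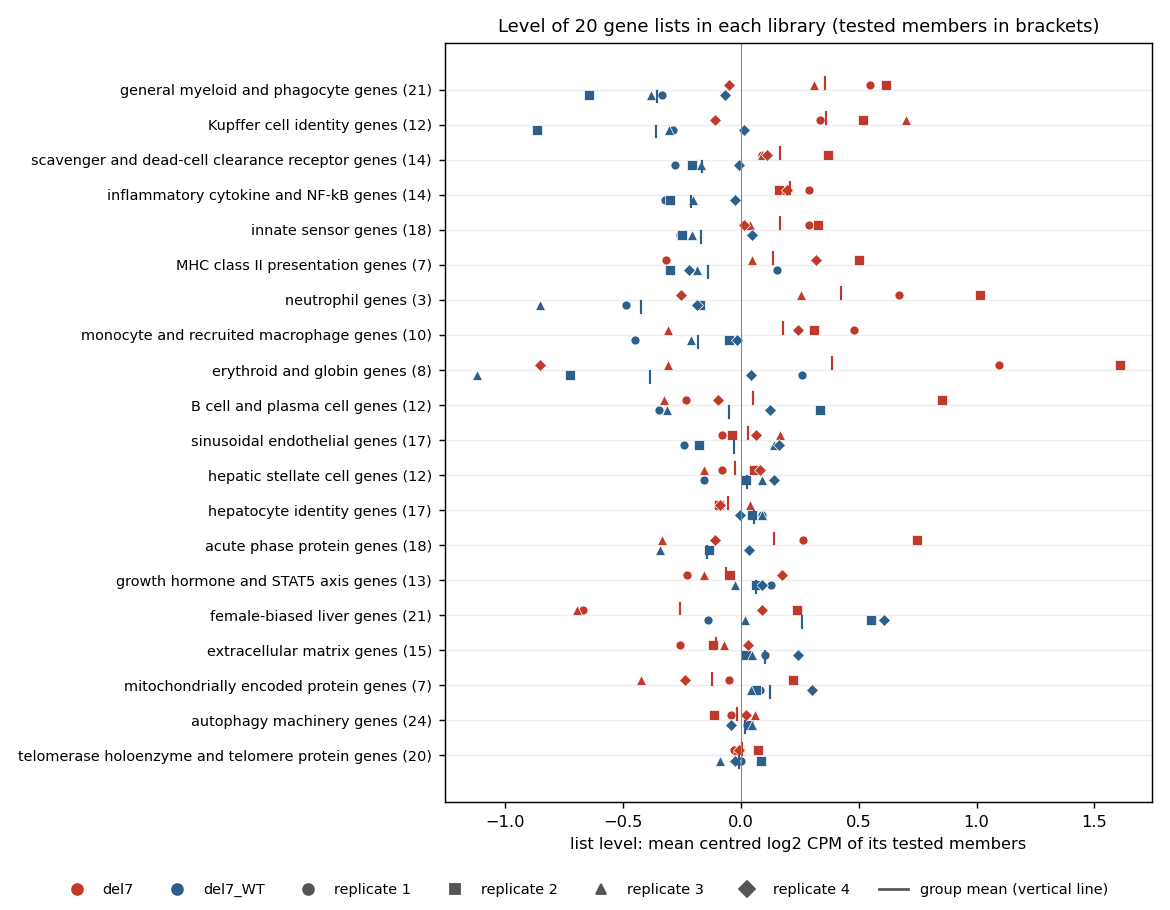
Level of 20 gene lists in each library, as the mean log2 CPM of the tested members with every gene first centred (del7 red, del7_WT blue, shape by replicate, vertical line at the group mean). The myeloid, scavenger and cytokine lists do not overlap between the groups, del7 replicates 1 and 2 are high for neutrophil and erythroid genes, and hepatocyte, autophagy and telomere lists lie near 0.

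Of the 15 genes with the smallest p among those lower in del7, 2 were on 1 of those lists. Serpina3k (ENSMUSG00000058207.7), a plasma serine protease inhibitor, read 1145, 1029, 1262 and 1111 CPM in del7 against 1888, 2041, 1711 and 2342 in del7_WT, a log2 fold change of -0.81 (SE 0.12, DESeq2 adjusted p = 2.82e-07). The highest del7 library, replicate 3, was below the lowest control. Its closest copy, Serpina3c, was 86.5% identical in transcript sequence. Ces1b, a carboxylesterase, was at 49.9, 68.2, 60.1 and 59.4 CPM against 87.4, 98.0, 86.7 and 77.8 (log2 -0.56, SE 0.11). Sdr9c7, a short-chain dehydrogenase, lay at 50.8, 37.1, 52.3 and 41.7 CPM against 69.2, 69.3, 62.2 and 58.9 (log2 -0.51, SE 0.12). Both were lower in every del7 library than in any control.

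Dpt, which encodes the matrix protein dermatopontin, was at 2.88, 3.47, 3.81 and 2.96 CPM against 7.31, 5.88, 8.74 and 9.16 (log2 -1.24, SE 0.19). Prok1, a secreted peptide that acts on endothelium, read 2.34, 1.62, 2.66 and 2.22 CPM against 5.10, 6.80, 10.2 and 4.27 (log2 -1.55, SE 0.29), and Ptges, a prostaglandin E synthase, 0.71 ± 0.177 against 2.09 ± 0.685 (log2 -1.56, SE 0.33). The succinate receptor Sucnr1 was the 1 leading gene whose groups overlapped (log2 -0.82, SE 0.20). Further leading genes were Carmil1 at log2 -0.76, Gdf10 at -0.66, and Zfp157 and Acad12 at -0.62. Mup9, at 0.305 ± 0.172 against 1.64 ± 0.514 CPM (log2 -2.42, SE 0.44), is 99.1% identical to Mup8 over 99.9% of its length, and Ces1b and Acad12 share stretches of 94.5% and 95.3% identity with Ces1c and Acad10, so reads of these genes may have been split or dropped. Mup9 passed the filter only through its del7_WT libraries, so its difference supports nothing. The 14 of 15 without overlap compare with 1.5% of all tested genes lower in del7 without overlap, and again follow from the choice by p.

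Genes of the growth hormone axis were among the lower ones. Igf1 (ENSMUSG00000020053.19), the growth factor that liver secretes under growth hormone, was at 684, 732, 739 and 682 CPM against 929, 1075, 850 and 907 (log2 -0.41, SE 0.10, DESeq2 adjusted p = 0.0126), without overlap. Ghr, the growth hormone receptor, was at 427, 541, 526 and 411 CPM against 617, 662, 612 and 636 (log2 -0.41, SE 0.11), also without overlap, and Igfals, the carrier of IGF1 in plasma, at 107 ± 12.8 against 145 ± 23.6 (log2 -0.44, SE 0.13). The axis as a list did not share this: 8 of 13 tested genes were lower, 3 at an unadjusted p under 0.05, with a median of -0.02. Cish, the feedback inhibitor that STAT5 induces, had a wide spread, 15.8 to 39.0 CPM against 17.2 to 66.3 (log2 -0.76, SE 0.38). The letters TTCNNNGAA, bound by STAT factors, were in 3 of 13 promoter windows of the leading lower genes (11 of 15 genes matched). They were in 6.67% of the windows of the leading higher genes and in 7.02% of all windows. With 3 windows the share is uncertain, and a match says nothing of binding. Control of these genes by STAT5 was not tested.

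Sex-biased liver genes, which follow the rhythm of growth hormone release, were lower in both directions of bias. Of 21 female-biased genes 18 were lower, 5 at an unadjusted p under 0.05, with a median of -0.34, and of 9 tested male-biased genes, from 16, 7 were lower, 3 at that p, with a median of -0.64. The male-biased median was -0.24 without del7_WT replicate 1, -0.37 without del7 replicate 2 and -0.36 with del7 replicates 3 and 4 only, and the female-biased median -0.18 without del7_WT replicate 4 and -0.54 without del7 replicate 2. Cyp3a44, a female-biased cytochrome, read 32.6, 193, 118 and 278 CPM against 384, 611, 196 and 778 (log2 -1.67, SE 0.57) and has a copy 95% identical, Cyp3a41a. Sult3a1 had a log2 fold change of -0.87 (SE 0.31). The organic anion carrier Slco1a1, male-biased, was at 0.545, 0.323, 2.28 and 0.123 CPM against 90.3, 2.66, 6.43 and 0.889, so a single control library carried most of its difference (log2 -4.94, SE 1.45, and from -6.12 to -1.95 when one library was left out). Selenbp2 and Serpina1e (log2 -1.15, SE 0.30, and -1.38, SE 0.40) have near copies, Selenbp1 (98.5%) and Serpina1b (96.2%).

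Matrix and hepatocyte programmes differed little. Of 15 tested extracellular matrix genes 12 were lower, 3 at an unadjusted p under 0.05, with a median of -0.19: Eln, elastin (log2 -0.60, SE 0.21), Lum, lumican (-0.39, SE 0.16), and the collagen gene Col3a1 (-0.31, SE 0.13). Without del7_WT replicate 4 that median was -0.09, with 1 gene at that p. Hepatocyte identity genes had a median of -0.09 with 14 of 17 lower, 1 at that p: the plasma glycoprotein gene Ahsg, at 4189, 5023, 4668 and 4699 CPM against 5188, 5684, 6089 and 5627 (log2 -0.28, SE 0.10). Its groups did not overlap. Periportal and urea cycle genes had 3 of 16 lower at that p, Cyp2f2 (-0.45, SE 0.16), Otc of the urea cycle (-0.30, SE 0.11) and Aldh1b1 (-0.34, SE 0.15), with a median of -0.03. Fatty acid and triglyceride synthesis genes had 2 of 17, the glucose-sensing factor Mlxipl (-0.36, SE 0.10) and Dgat2, the last step of triglyceride synthesis (-0.40, SE 0.12), with a median of -0.04. Bile acid genes had a median of -0.10 and cholesterol synthesis genes 0.11 (-0.079 without del7 replicate 2, -0.012 without del7_WT replicate 1), with 0 at that p in either.

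Acute phase and iron genes, both regulated by inflammation, gave a few large values. Among 18 acute phase genes 16 were higher, 3 at an unadjusted p under 0.05, with a median of 0.23. Hp, haptoglobin, which binds free haemoglobin, was at 2029, 2108, 1554 and 1408 CPM against 1031, 970, 1141 and 1366 (log2 0.66, SE 0.16, DESeq2 adjusted p = 0.0267), without overlap, and Hpx, hemopexin, which binds free haem, at 2646 ± 510 against 1928 ± 194 (log2 0.46, SE 0.14). Saa1, the serum amyloid that climbs most in an acute phase response, stayed low, with 43.4 CPM in del7 replicate 2 and 7.97 to 16.6 in the other 7 libraries. Without del7 replicate 2 the acute phase median was 0.053. With del7 replicates 3 and 4 only, 4 of 18 acute phase genes were higher and the median was -0.10. Of 15 tested iron genes 3 were higher and 1 lower at that p: Slc11a1, the phagosomal metal exporter NRAMP1, at 11.1, 11.6, 11.8 and 11.2 CPM against 7.31, 4.50, 7.84 and 7.20 (log2 0.77, SE 0.17), the haem oxygenase gene Hmox1 (0.96, SE 0.26), the transferrin receptor gene Tfrc (0.68, SE 0.27), and the hepcidin-type gene Hamp2 (-0.77, SE 0.30).

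The processes tied to Terc itself gave few small p-values. Of 20 telomerase and telomere protein genes 2 were higher at an unadjusted p under 0.05, the shelterin genes Pot1b, at 8.65, 8.32, 9.42 and 10.2 CPM against 7.79, 7.53, 6.17 and 6.76 (log2 0.36, SE 0.13), and Terf2ip (0.33, SE 0.13), with a median of -0.04 for the list. All 24 autophagy genes had larger p-values, 16 of them lower, with a median of -0.05, and the 19 lysosome genes had a median of 0.06 with 0 at that p. Among 25 AMPK and mTOR genes 1 was lower at that p, Sesn2, a stress-induced inhibitor of mTOR (-0.26, SE 0.12), which is also on the p53 list, where the median over 15 tested genes was -0.02. Proliferation genes had 11 of 21 tested, with a median of 0.01 and 0 at that p. The median SE of the log2 fold change over all tested genes was 0.157.

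Mitochondrial and ribosomal genes leaned by small amounts. All 7 mitochondrially encoded protein genes that could be tested, from 13, were lower, with a median of -0.26 and 1 at an unadjusted p under 0.05, mt-Nd6, at 254, 300, 231 and 223 CPM against 289, 302, 323 and 356 (log2 -0.33, SE 0.12). The median was -0.12 without del7 replicate 3, with 1 gene higher, and -0.46 with del7 replicates 3 and 4 only, with 6 of 7 at that p. The other 6, mt-Co2 and mt-Co3 among them, are listed at 0 in all 8 libraries. Of 29 nuclear oxidative phosphorylation genes 26 were lower by little (median -0.06), and of 39 cytosolic ribosomal protein genes 36 were higher by little (median 0.08), with 0 at that p in either list.

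**Figure D4:**
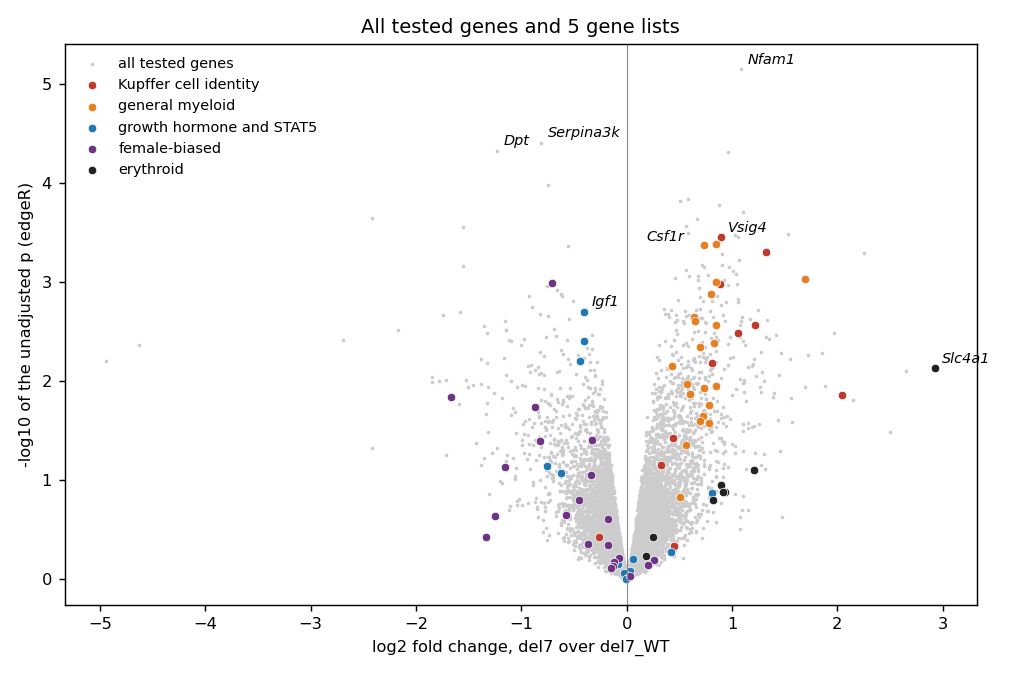
Log2 fold change (del7 over del7_WT) against -log10 of the unadjusted edgeR p for all 13841 tested genes, with 5 gene lists in colour. Kupffer and myeloid genes lie to the right, Igf1 and Serpina3k to the left, and Slc4a1 far right at 2.93, while 0 genes passed the adjusted threshold.

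The AUG line served to ask whether these differences were particular to del7. The contrast of the del7 effect minus the AUG effect over all 16 libraries gave 1 gene of 14421 by edgeR (0.00693%), Rps3a1, a ribosomal protein gene (log2 2.63, SE 0.21, adjusted p = 3.47e-05), at 83.1 ± 9.67 CPM in del7, 75.8 ± 7.86 in del7_WT, 16.7 ± 1.96 in AUG and 94.1 ± 20.2 in AUG_WT (mean ± SD, n = 4). The AUG libraries were the low ones, and the near copy Rps3a3 makes its counts uncertain. In AUG_WT replicate 1 the 21 general myeloid genes summed to 3076 CPM, against 496 to 613 CPM in the other 3 AUG_WT libraries, so values are given with and without it. Nfam1 had a log2 fold change of -0.13 (SE 0.30) in AUG, and 0.38 (SE 0.21) without that library, and Csf1r -0.16 (SE 0.30) and 0.35 (SE 0.21). General myeloid genes had a median of -0.53 in AUG and of 0.38 without it, Kupffer genes 0.08 and 0.26. The difference between the lines had an unadjusted p under 0.05 for 8 of 21 myeloid and 4 of 12 Kupffer genes, and for 1 and 1 without that library, beside 5.21% and 3.02% of all genes. By library, the 21 myeloid genes summed to 514, 1102, 738 and 452 CPM in AUG replicates 1 to 4. Only AUG replicates 2 and 3 exceeded all of the other 3 AUG_WT libraries. In the same scaling del7 read 814, 829, 687 and 534 CPM, with replicate 4 inside the range of those AUG_WT libraries. The del7_WT libraries read 471, 365, 421 and 511 CPM.

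Values of leading lower genes and of red-cell genes in the other line follow. Serpina3k was higher in AUG, at log2 0.79 (SE 0.41) and 0.70 (SE 0.43) without AUG_WT replicate 1, a difference from del7 of -1.60 (SE 0.58) and -1.52 (SE 0.59). Igf1 was at 0.23 (SE 0.22) and 0.03 (SE 0.12) in AUG, a difference of -0.64 (SE 0.31) and -0.45 (SE 0.17). Sucnr1, in contrast, was at -0.53 (SE 0.47) and -0.88 (SE 0.28) in AUG, beside -0.82 in del7 (difference -0.30, SE 0.67, and 0.04, SE 0.38). Erythroid genes had a median of -1.90 in AUG and -2.05 without that library, and 7 of 8 had a difference between the lines at an unadjusted p under 0.05 in both fits, though the del7 side of it rests on replicates 1 and 2. The edgeR adjusted p of the difference was 0.864 for both Serpina3k and Igf1.

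**Figure D5:**
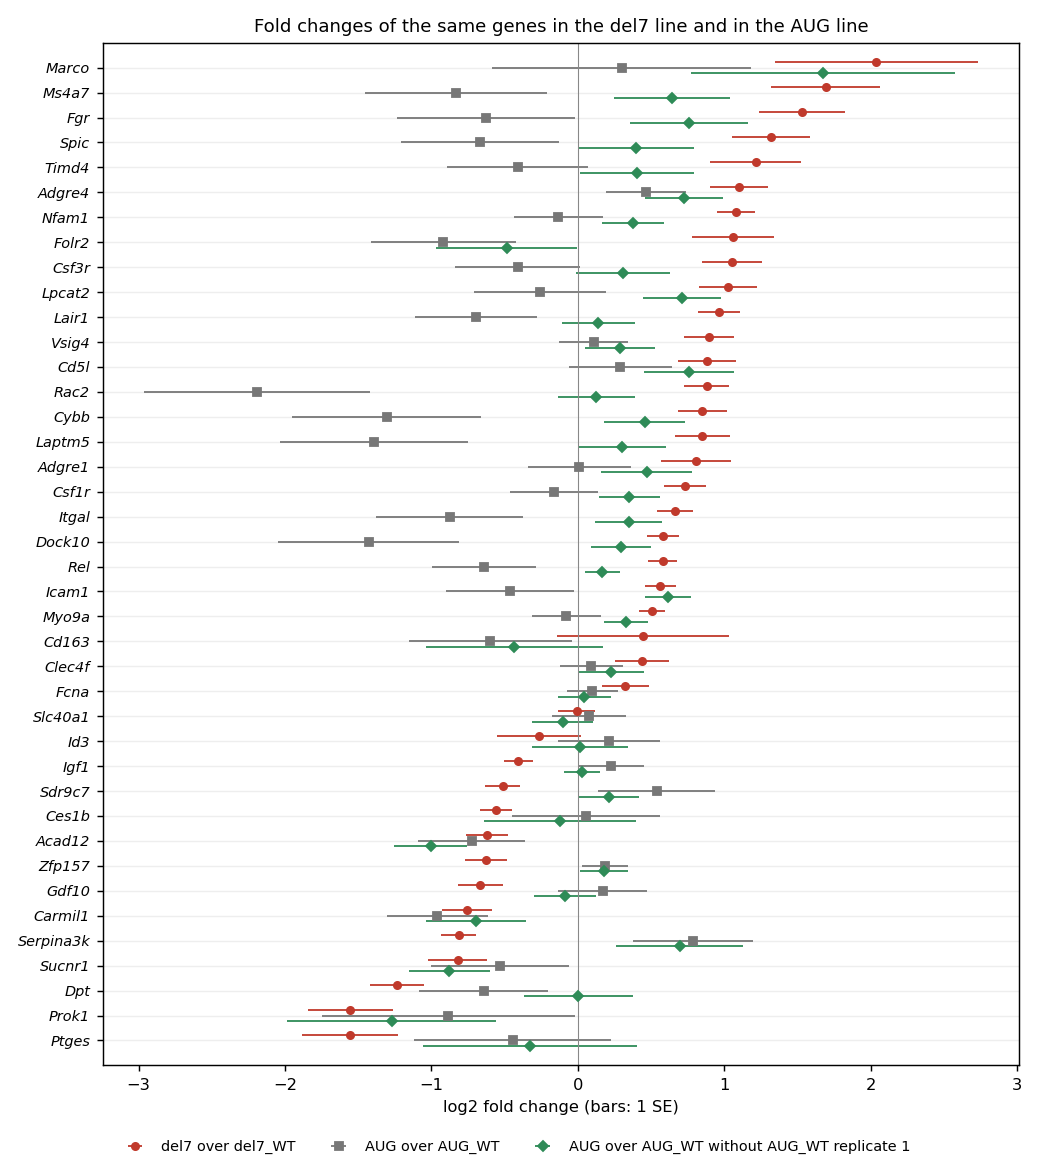
Log2 fold changes with bars of 1 SE for most leading genes, the Kupffer genes and 4 myeloid genes in the del7 line (red), the AUG line (grey) and the AUG line without AUG_WT replicate 1 (green); Mup9, at -6.38 in AUG, is left out. Most immune genes are positive in red and green and spread to both sides in grey, and Serpina3k and Igf1 are on opposite sides of 0 in red and the others.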

How the data were processed

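RNA of 8 liver samples, 4 in del7 and 4 in del7_WT, was taken from 10 mg of frozen tissue each. It was depleted of ribosomal RNA and sequenced with a directional kit, per the labels' protocols. Per the submitters' processing notes the tools were cutadapt 2.10 and STAR 2.7.9a and the build was GRCm39, while the gene annotation's release was not given in the sources used here. Raw counts per gene, in whole reads, were deposited in 1 table for the series, which equalled the reverse-strand column of the deposited count table of each sample in all 16 samples. All columns were matched by title and 0 were left unmapped. Lines that name no gene stayed out of library sizes and tests: 23.0% to 29.4% of a library lay outside genes, 10.2% to 15.0% was multimapping and 3.19% to 3.93% unmapped. Genes with near copies are uncertain, since multimapping reads were not counted in genes. Copies were found with blastn 2.17.0 between transcripts. GENCODE M21 (GRCm38) gave names for 52081 of 55357 genes and no coordinates, and promoter windows came from RefSeq on GRCm38.p6. Terc is not analysed here.

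The 8 libraries were fitted alone with edgeR 4.0.16 (R 4.3.3): filterByExpr with a minimum count of 10 (13841 genes kept), TMM scaling (factors 0.956 to 1.05), glmQLFit and glmQLFTest on group, two-sided, 6 residual degrees of freedom, Benjamini-Hochberg adjustment over all tested genes and a threshold of 0.05. The biological coefficient of variation was 0.176. Log2 CPM for list levels carried a prior count of 2. The difference between the lines was a contrast over all 16 libraries (14421 genes). The pipeline was tested on simulated data. No pair among the 28 pairs of libraries agreed within sampling noise (lowest chi-square 9.20 per gene), and every library was counted separately.

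Named genes were the 15 with the smallest p in each direction, leaving out clone, Gm, Rik and pseudogene names, up to 4 members of a list with the smallest p, and all Kupffer genes. Of the leading lower genes, 2 are not reported here. Cxcl13 and the list members below the filter, Tnf, Il6 and Itgam among them, were named after their values were seen. The comparison, the members and the 47 gene lists were chosen with earlier results of these data known, so lists are described by counts and medians with no test. Same-numbered del7 and del7_WT libraries correlated at 0.108 to 0.298 in their deviations from the group means, above 0.1 in all 4 pairs. The replicate number was therefore also fitted as a block. Unlike-numbered pairs passed 0.1 too: del7 replicate 4 with del7_WT replicate 2 at 0.202, 1 with 3 at 0.183, and 2 with 4 at 0.171. Only 3 del7 libraries correlated best with their own number, so the correlations do not single out 4 pairs. This pairing is read from the data and not stated in the labels. Alternatives were the unstranded column, RLE size factors, library totals, no filter, a mean of 1 CPM, DESeq2 1.42.0, limma 3.58.1 voom, all libraries of the series in 1 fit, the block, and each library left out in turn. DESeq2 with the block or with a library left out, and the fit of del7 replicates 3 and 4 only, were added after the data were seen.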

Additional observations from a re-analysis of the deposited data

Results flagged for a closer look

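Among 350 groups of 4 libraries checked, 13 had 1 library far from the other 3 by Dixon's test, which flags about 1 group in 20 by chance. For single genes these were Rac2 in del7_WT replicate 2, at 4.59 CPM beside 5.91 to 6.13 (it lowers the control mean of a leading gene, whose log2 fold change ran from 0.77 to 0.92 when one library was left out), Lpcat2 in del7 replicate 2, at 7.67 CPM beside 5.18 to 5.52, and Itgax in del7 replicate 1, at 15 CPM beside 3.58 to 5.41. Il2rb, a receptor chain of T and natural killer cells, was at 6.71 CPM in del7 replicate 2 beside 3.46 to 3.71. Slco1a1 was at 90.3 CPM in del7_WT replicate 1 beside 0.889 to 6.43.

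For list levels, the mean centred log2 CPM of the members, del7 replicate 2 stood at 0.75 for T and natural killer cell genes beside -0.11 to 0.02, and at 0.37 for scavenger genes beside 0.09 to 0.11. In del7 replicate 3 the hepatocyte level was 0.041 beside -0.09 to -0.08, and the cytosolic ribosomal protein level 0.16 beside -0.01 to 0.01. The dendritic cell level of del7 replicate 4 was 0.27 beside 0.06 to 0.09. In del7_WT replicate 4 the innate sensor level was 0.046 beside -0.26 to -0.21, the fatty acid and triglyceride synthesis level 0.47 beside -0.12 to -0.03, and the mitochondrially encoded level 0.30 beside 0.04 to 0.08.

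Between the lines, Rps3a1 had a difference of 2.63 on the log2 scale (del7 effect minus AUG effect), past the adjusted threshold of edgeR.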

How the results depend on the processing

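The count of 0 genes held in edgeR under RLE size factors, library totals, unstranded counts, a mean of 1 CPM, the replicate block, all libraries of the series, voom and each library left out. No filter gave 9 genes of 26170, all 9 among the 65 that DESeq2 called, and DESeq2 gave 15 to 138 without 1 library (15 without del7 replicate 1, 17 without del7_WT replicate 2, 23 without del7_WT replicate 1, 138 without del7 replicate 4). At an unadjusted p under 0.01, all libraries of the series gave 22 higher and 18 lower, no filter 181 lower, and leaving out 1 library 111 to 254 higher and 46 to 116 lower. The pairing by replicate block gave 244 higher and 150 lower at that p, and 508 lower, beside 324, at a p under 0.05; in DESeq2 it gave 32 higher and 37 lower calls, 34 of them among the 65. With del7 replicates 3 and 4 only, 50 were higher, and the medians were 0.44 for myeloid, 0.40 for neutrophil, -0.45 for erythroid and 0.13 for innate sensor genes. The neutrophil median was 1.55 with no filter. Leaving out 1 library moved the B and plasma cell median between -0.15 (without del7 replicate 2) and 0.55, the cytokine median between 0.33 and 0.53, and the AMPK and mTOR median between -0.070 and 0.014. The difference between the lines gave 6 genes in DESeq2 and 2 without AUG_WT replicate 1. Slc40a1 turned to 0.032 with library totals, and ran from -0.094 to 0.069 without 1 library. In each case the cause was not tested. Of the other values for single genes, 2126 kept direction and side of the threshold and 44 passed it under an alternative. Depth limits the low genes: only 3 of 14 neutrophil and 5 of 17 T and natural killer cell genes passed the filter.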

Other observations

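Stress and signalling programmes had few small p-values in del7 against del7_WT. Of 19 tested unfolded protein and ATF4 response genes 13 were lower (median log2 fold change -0.06), and 1 had an unadjusted p under 0.05: Chac1, an ATF4 target that degrades glutathione, at 0.545, 0.889, 1.62 and 0.864 CPM against 2.55, 2.94, 2.83 and 1.51 (log2 -1.33, SE 0.35), with del7 replicate 3 inside the control range. NRF2 oxidative stress genes had a median of -0.05 and 1 of 11 at that p, G6pdx, the enzyme that supplies NADPH, at 9.27, 13.7, 7.90 and 9.13 CPM against 5.79, 4.87, 5.53 and 7.74 (log2 0.74, SE 0.21), without overlap. Immediate early genes had 2 of 11 lower at that p, Zfp36, which destabilises cytokine mRNA (log2 -0.52, SE 0.18), and Myc (-0.52, SE 0.22), although 8 of 11 were higher, with a median of 0.12 (0.013 without del7_WT replicate 2). Heat shock genes had a median of 0.12 (from -0.12 without del7 replicate 1 to 0.31 without del7 replicate 4) and interferon-stimulated genes 0.07, with 0 of 11 and 0 of 17 at that p.

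Metabolic and clock genes lay near 0. The clock list had a median of -0.02 with 1 of 17 at that p, the repressor Bhlhe41, at 2.15 ± 1.39 CPM against 5.16 ± 3.76 (mean ± SD, n = 4 in each group; log2 -1.32, SE 0.53), groups that overlapped. Pericentral hepatocyte genes had a median of -0.13 (0.082 without del7_WT replicate 1) with 1 of 14 at that p, the WNT-responsive factor Tbx3 (log2 0.59, SE 0.20), and Cyp2e1 read 3357, 3618, 5345 and 5133 CPM against 6309, 6556, 5729 and 3270 (log2 -0.33, SE 0.23). Fatty acid oxidation and xenobiotic genes both had a median of -0.05, with 0 of 24 and 1 of 18 at that p, the latter Ahr, the dioxin receptor (log2 0.39, SE 0.12). Dendritic cell genes had a median of 0.26 over 4 tested, 0 at that p, and of 6 platelet genes 2 could be tested, with Ppbp at 2.26, 6.14, 1.90 and 0.741 CPM against 0.552, 0.459, 1.54 and 1.42 (log2 1.57, SE 0.60), highest in del7 replicate 2. By edgeR's adjusted test 0 of these genes passed.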
